A study of Sus scrofa with 6 samples.

Results

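Prostaglandins and leukotrienes are lipid mediators made from arachidonic acid, and blood monocytes are among the cells that can make both. The data described here are the signals of 7 genes of these pathways in porcine monocytes: PTGS2, PTGS1 and PTGES of the cyclooxygenase arm, and ALOX5, ALOX5AP, LTA4H and LTB4R of the lipoxygenase arm. The members were found by their gene symbol in the annotation of the array. All 7 were present, with 8 probe sets in all, out of 13755 gene symbols and 47722 probe sets that are not array controls. ALOX5 has 2 probe sets and each other member has 1.

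The animals were 3 piglets, first-generation crosses of Large White and Landrace, aged 8 weeks. Mononuclear cells had been frozen, thawed, kept cold, stained for CD14 and CD163 and sorted by flow cytometry, with no stimulation described in the labels. CD163high is the CD14low-CD163high population and CD163low is the CD14high-CD163low population, with 3 arrays each, 1 per pig. CD14 helps cells to sense bacterial lipopolysaccharide, and CD163 takes up haemoglobin bound to haptoglobin. Values are log2 signals after the authors' normalization. They have no absolute unit and are compared only between arrays of 1 probe set. Differences are CD163high minus CD163low with the standard error (SE) of a limma fit, a linear model with variances moderated across all probe sets. With only 6 arrays the precision of each value is limited.

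In the cyclooxygenase arm, PTGS1 and PTGS2 encode the enzymes that turn arachidonic acid into prostaglandin H2. PTGS1 is mostly constitutive, whereas PTGS2 is induced by inflammatory signals. PTGES encodes the membrane-bound synthase that makes prostaglandin E2 from prostaglandin H2. In the lipoxygenase arm, ALOX5 encodes 5-lipoxygenase, ALOX5AP encodes its membrane partner FLAP, and LTA4H encodes the hydrolase that turns leukotriene A4 into leukotriene B4, a chemoattractant of neutrophils. LTB4R encodes the high-affinity receptor for leukotriene B4.

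The brightest probe sets of the sort antigens followed the gate in each of the 3 pigs, with log2 differences of 2.03 ± 0.43 (SE) for CD163 and -1.07 ± 0.47 (SE) for CD14. A dimmer CD163 probe set had 1.06 ± 0.44 (SE) with overlapping groups, and did not follow the gate in pig 3, at -0.06. The 69 background controls of the array averaged 2.82, 2.97 and 3.67 in CD163high, against 3.29, 2.60 and 3.06 in CD163low, of pigs 1, 2 and 3, so that CD163high of pig 3 had the highest background. The Y-linked gene EIF1AY had 9.16 in CD163high and 5.09 in CD163low of pig 1, 9.17 and 9.12 in pig 2, and 4.57 and 6.88 in pig 3. The 2 arrays labelled as pig 1, and the 2 labelled as pig 3, thus differed widely in a Y-linked gene. The 2 lowest values, in CD163high of pig 3 and CD163low of pig 1, were on the 2 arrays with the highest background. Whether each array belongs to its labelled animal, or the quality of these arrays plays a part, was not tested. Differences by pig rest on the labels, while the limma fit without a block does not use the pig. The 6 measured monocyte markers averaged between 7.53 and 8.13 in CD163high and between 7.47 and 8.10 in CD163low. They include the sort antigens CD163 and CD14, and all 6 lay above the control mean on every array. The 4 T cell markers averaged between 4.66 and 8.32 in CD163high and between 5.84 and 8.31 in CD163low, highest in both populations of pig 2. The 3 erythroid markers averaged 7.75 in CD163high and 7.46 in CD163low of pig 2, and between 3.41 and 3.93 on the other arrays.

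Across the array limma called 0 of the 47722 probe sets at an adjusted p of 0.05 (0%), and 1235 (2.59%) had an unadjusted p under 0.05. No member passed the test over the whole array, and the adjusted p was 1 for each. Of the 7 members 1 had an unadjusted p under 0.05. This was PTGS2.

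PTGS2 had log2 signals of 5.86, 5.67 and 5.59 in CD163high of pigs 1, 2 and 3, against 7.94, 7.15 and 6.79 in CD163low. The lowest CD163low value lay above the highest CD163high value, so the groups did not overlap, and the gap was widest in pig 1. The difference was -1.59 ± 0.31 (SE), a signal 3.00-fold lower in CD163high, with a 95% interval from -2.35 to -0.83. By pig it was -2.08, -1.48 and -1.19. The unadjusted limma p was 0.00205 and the adjusted p was 1. Without pig 1 the difference was -1.34 and without pig 3 it was -1.78. With the pig as a block the unadjusted p was 0.00178 and the adjusted p was again 1. An exact two-sided permutation test of the 6 arrays gave p = 0.1, the smallest that 3 arrays against 3 allow. The 3 CD163high arrays lay closer together than the 3 CD163low arrays, with means of 5.71 ± 0.14 (SD, n = 3) in CD163high and 7.29 ± 0.59 (SD, n = 3) in CD163low.

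PTGS2 was brighter than all 69 background controls on each CD163low array. In CD163high it was brighter than 68, 57 and 51 of them in pigs 1, 2 and 3. It lay above the mean of the controls on all 6 arrays. As these are bulk samples, fewer cells that express a gene and less RNA per cell cannot be told apart. Over the 8 measured neutrophil markers, the mean signal lay between 4.34 and 5.05 in CD163high and between 4.82 and 5.44 in CD163low. It was lower in CD163high in each pig, with CXCR2 at -2.66 ± 0.41 (SE) and CSF3R at -1.09 ± 0.56 (SE), although the median difference over the 8 was -0.09. LTF, a granule protein gene of neutrophils, lay below the control mean on all 6 arrays. The part of these markers in the PTGS2 difference was not tested.

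**Figure D1:**
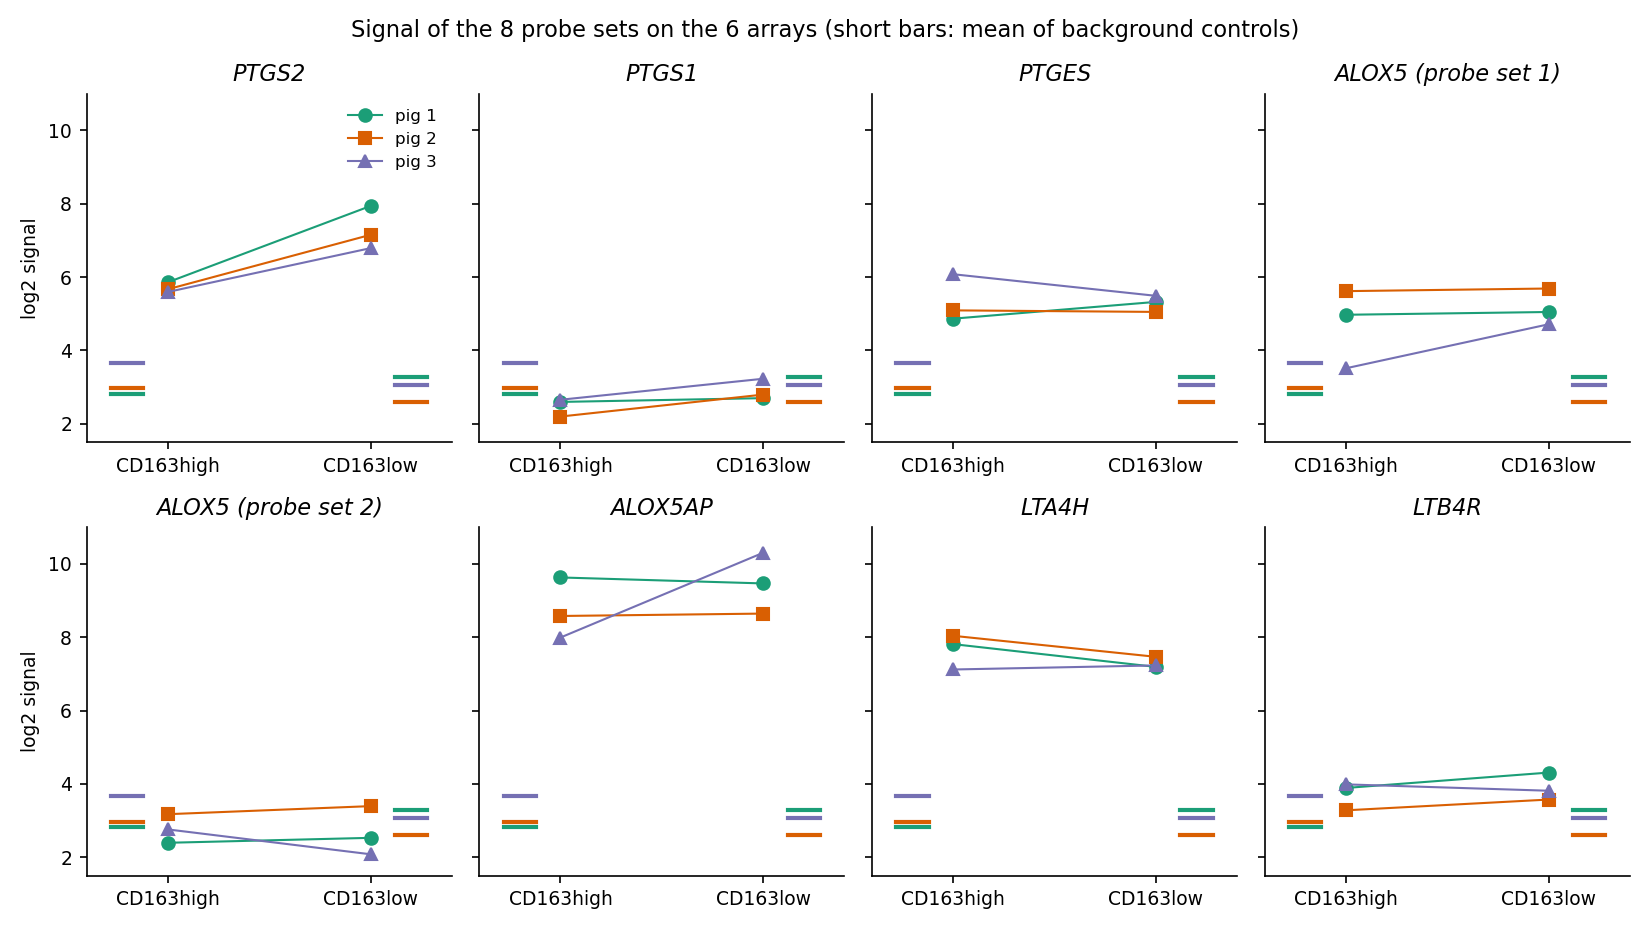
Log2 signal of the 8 probe sets of the 7 genes (vertical axis), with CD163high at the left and CD163low at the right of each panel; a line joins the 2 arrays labelled as the same pig, and the short bars at each side give the mean of the background controls of each array. PTGS2 lies between 5.59 and 5.86 in CD163high and between 6.79 and 7.94 in CD163low, PTGS1 and the second probe set of ALOX5 lie at the level of the controls, and the ALOX5AP line of pig 3 is steep while those of pigs 1 and 2 are nearly flat.

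The other cyclooxygenase gene, PTGS1, lay at the level of background. Its signals were 2.60, 2.20 and 2.66 in CD163high and 2.70, 2.80 and 3.23 in CD163low of pigs 1, 2 and 3. They exceeded the mean of the controls on 2 of the 6 arrays, CD163low of pigs 2 and 3. The difference was -0.42 ± 0.23 (SE), with a 95% interval from -0.97 to 0.12, and no fold is given at this level. The groups did not overlap, as was the case for 6.29% of all probe sets. With PTGS2 this made 2 of the 7 members, both lower in CD163high, a direction without overlap that 3.37% of all probe sets had. Platelets are known for PTGS1. The 12 measured platelet markers averaged 3.62, 3.86 and 3.87 in CD163high, against 4.18, 3.91 and 4.02 in CD163low, and 4 of the 12 lay above the control mean on every array. GP9, the brightest of them, had a difference of 0.06 ± 0.31 (SE). TUBB1, a tubulin gene of platelets, had -0.82 ± 0.35 (SE). Their part in the PTGS1 signal was not tested.

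PTGES had no shared direction. Its signals were 4.86, 5.09 and 6.08 in CD163high and 5.32, 5.05 and 5.49 in CD163low of pigs 1, 2 and 3. The groups overlapped fully, with the highest and the lowest array both in CD163high. The difference was 0.06 ± 0.35 (SE), with a 95% interval from -0.78 to 0.90. By pig it was -0.46, 0.04 and 0.59. Without CD163high of pig 3, the array with the highest background, the difference was -0.31. The probe set of PTGES was above the control mean on all arrays and above every control on 0 of them.

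In the lipoxygenase arm, ALOX5AP varied most between arrays and the difference rested on pig 3. Its signals were 9.63, 8.58 and 7.99 in CD163high and 9.46, 8.64 and 10.30 in CD163low of pigs 1, 2 and 3. The 2 populations of pig 1, and those of pig 2, were nearly level, while pig 3 held both the lowest and the highest of the 6 values. The difference was -0.74 ± 0.56 (SE), with a 95% interval from -2.09 to 0.62 and an unadjusted limma p of 0.234. By pig it was 0.16, -0.07 and -2.31. Without pig 3 it was 0.049. In pig 3 the monocyte markers, CD163 and CD14 among them, averaged 7.53 in CD163high and 8.10 in CD163low. The T cell markers of pig 3 averaged 4.66 in CD163high and 6.50 in CD163low. The part of either marker set in the ALOX5AP value of pig 3 was not tested.

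ALOX5 showed the same arrangement in its brighter probe set. It had 4.97, 5.61 and 3.51 in CD163high and 5.05, 5.69 and 4.71 in CD163low of pigs 1, 2 and 3. The populations of pigs 1 and 2 were nearly level and the gap was again in pig 3, where the CD163high value lay below the control mean of that array. The difference was -0.45 ± 0.57 (SE), with a 95% interval from -1.82 to 0.92, and without CD163high of pig 3 it was 0.14. Its second, dimmer probe set had 2.40, 3.17 and 2.76 in CD163high and 2.53, 3.39 and 2.08 in CD163low. It lay above the control mean on 2 of the 6 arrays and had a difference of 0.11 ± 0.38 (SE), so the probe sets differ in sign and neither stands outside its error. Both probe sets were highest in pig 2, in each population.

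LTA4H was the member with the largest positive difference. Its signals were 7.81, 8.04 and 7.12 in CD163high and 7.19, 7.46 and 7.23 in CD163low of pigs 1, 2 and 3. CD163high exceeded CD163low in pigs 1 and 2, by 0.62 and 0.57, and not in pig 3, at -0.11. The difference was 0.36 ± 0.27 (SE), with a 95% interval from -0.30 to 1.02 and an unadjusted limma p of 0.232. Without CD163high of pig 3 it was 0.63 ± 0.20 (SE), with an unadjusted p of 0.0225 and an adjusted p of 0.926. LTA4H was brighter than all background controls on 5 of the 6 arrays, the exception being CD163high of pig 3.

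The receptor gene LTB4R had 3.89, 3.28 and 3.99 in CD163high and 4.31, 3.57 and 3.81 in CD163low of pigs 1, 2 and 3. The groups overlapped, and the difference was -0.18 ± 0.29 (SE), with a 95% interval from -0.87 to 0.51. Its signal was above the control mean on all arrays and above every control on 0 of them. LTB4R2, which encodes the low-affinity receptor and is the neighbour of LTB4R in RefSeq (Sscrofa11.1), had -0.22 ± 0.27 (SE).

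**Figure D2:**
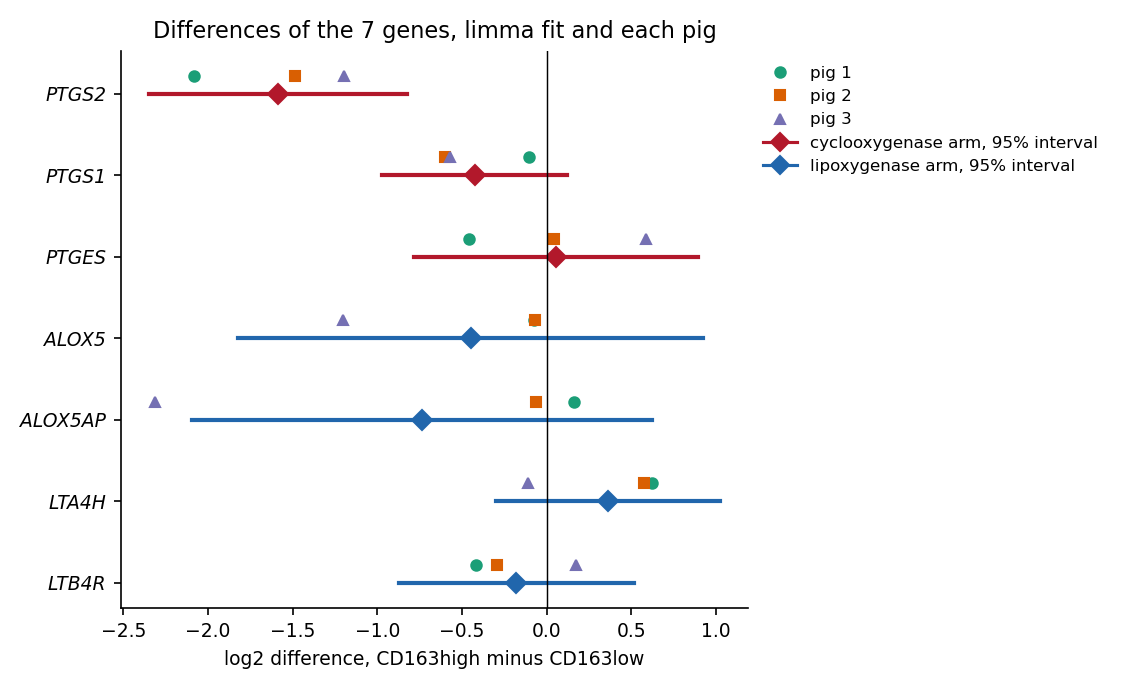
Log2 difference of CD163high minus CD163low (horizontal axis) for the brightest probe set of each gene; diamonds and lines give the limma estimate and its 95% interval, by arm, and small symbols the 3 pigs. The interval of PTGS2, from -2.35 to -0.83, leaves out 0, and those of the other 6 genes include it.

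Neither of the other cyclooxygenase genes, nor any lipoxygenase gene, had a 95% interval that left out 0. The median difference was -0.42 over the 3 cyclooxygenase genes and -0.31 over the 4 lipoxygenase genes, against -0.02 over all 47722 probe sets. The -0.42 is the value of PTGS1 alone, which lay at the level of background. Without CD163high of pig 3 the lipoxygenase median was -0.08, without pig 3 it was -0.012, and with array weights it was 0.03. In pigs 1, 2 and 3 the cyclooxygenase median was -0.46, -0.60 and -0.57 and the lipoxygenase median 0.04, -0.07 and -0.66. The cyclooxygenase median was thus lower by 0.50 and 0.53 in pigs 1 and 2 and higher by 0.08 in pig 3. With so few genes the cyclooxygenase median was that of 1 gene in each pig, PTGES in pig 1 and the dim PTGS1 in pigs 2 and 3. Of the 7 genes 5 had a negative and 2 a positive difference. In all 3 pigs 3 genes (PTGS2, PTGS1 and ALOX5 by its brighter probe set) were lower in CD163high. Over all probe sets 52.8% had a negative difference, and 5937 of the 47722 were lower in CD163high in all 3 pigs. The same direction in the 3 pigs, higher or lower, was seen for 22.4%.

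The array CD163high of pig 3 touches most of these values. It held the lowest of the 6 signals of PTGS2, ALOX5 (brighter probe set), ALOX5AP and LTA4H and the highest of PTGES. Without it the differences were -1.53 for PTGS2, -0.51 for PTGS1, -0.31 for PTGES, 0.14 for ALOX5, -0.37 for ALOX5AP, 0.63 for LTA4H and -0.31 for LTB4R. PTGS2 was then the member with the largest difference, as it was with all arrays.

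**Figure D3:**
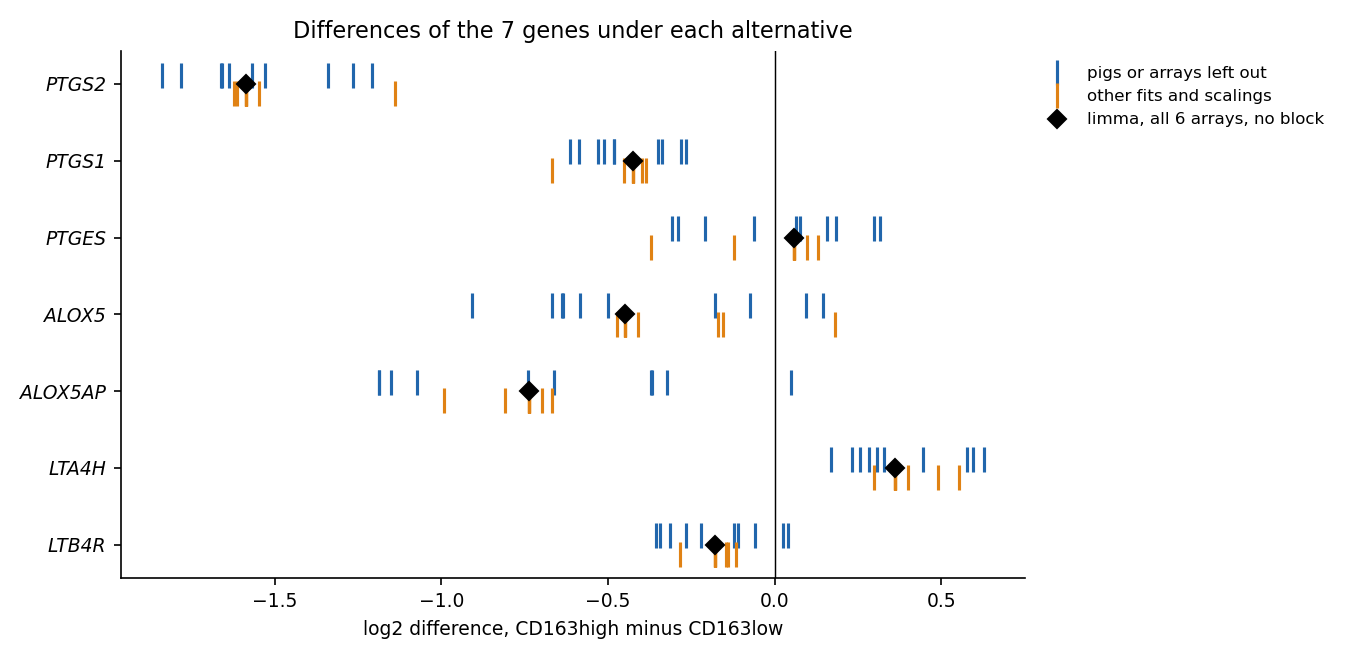
Log2 difference of CD163high minus CD163low (horizontal axis) for each gene with all 6 arrays and no block (diamond), with pigs or arrays left out (upper ticks) and under other fits and scalings (lower ticks). The ticks of PTGS2 run from -1.84 to -1.14 and those of LTA4H from 0.17 to 0.63, whereas PTGES, ALOX5, ALOX5AP and LTB4R have ticks on both sides of 0.

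The other genes of eicosanoid metabolism gave few differences. The list held 75 symbols, with PTGDR2 and GPR44 naming the same gene, and 52 genes were measured. None passed over the whole array, and 1 had an unadjusted p under 0.05, against 2.59% of all probe sets. The median difference was -0.01, with 25 genes higher and 27 lower. The same sign in all 3 pigs was seen for 5 higher and 5 lower genes.

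The 1 gene with an unadjusted p under 0.05 was MGST3, a microsomal glutathione transferase that can make leukotriene C4 in vitro. It had 6.97, 6.32 and 4.63 in CD163high and 3.14, 5.11 and 4.13 in CD163low of pigs 1, 2 and 3. The groups overlapped, and the difference of 1.85 ± 0.73 (SE) came mostly from pig 1, at 3.83, against 1.21 and 0.50 in pigs 2 and 3. The value in CD163low of pig 1 lay below the control mean of that array, so the size is uncertain.

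The release of arachidonic acid comes before both arms. PLA2G4A, the cytosolic phospholipase A2 gene and the neighbour of PTGS2 in RefSeq (Sscrofa11.1), had 6.94, 5.76 and 3.91 in CD163high and 4.69, 5.64 and 4.89 in CD163low. Its differences of 2.26, 0.13 and -0.98 in the 3 pigs went both ways. PLA2G2D, a secreted phospholipase gene, had 1.04 ± 0.57 (SE), PLA2G6, a calcium-independent one, -0.40 ± 0.33 (SE), and ABHD6, a monoacylglycerol lipase gene, -0.55 ± 0.50 (SE). Of the 14 measured release genes 9 were lower and 5 higher.

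Downstream of the cyclooxygenases, the thromboxane synthase gene TBXAS1 had 7.49, 7.79 and 6.95 in CD163high and 6.89, 7.30 and 8.16 in CD163low, a difference of -0.04 ± 0.39 (SE). PTGES2 and PTGES3, which encode the other prostaglandin E synthases, had 0.12 ± 0.23 (SE) and 0.55 ± 0.71 (SE). In pig 1 the difference of PTGES3 was 1.91 and in pig 3 it was -1.08. HPGD, the prostaglandin-degrading dehydrogenase, had 0.56 ± 0.35 (SE) and lay above the control mean on 3 arrays.

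Among the lipoxygenases ALOX15 had -0.49 ± 0.26 (SE) with a signal above the control mean on 2 arrays. ALOX12, the platelet lipoxygenase gene, had -0.18 ± 0.28 (SE). CYP4F2, whose human enzyme inactivates leukotriene B4 by hydroxylation, had 4.17, 5.06 and 4.54 in CD163high and 4.48, 6.21 and 5.71 in CD163low, a difference of -0.88 ± 0.48 (SE), and was lower in CD163high in all 3 pigs. GPX4, a glutathione peroxidase that reduces lipid hydroperoxides, had 0.53 ± 0.35 (SE), EPHX1, an epoxide hydrolase gene, 0.25 ± 0.21 (SE), and GGT5, whose enzyme turns leukotriene C4 into D4, -0.25 ± 0.19 (SE).

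Of the 10 measured receptor genes 6 were lower and 4 higher, and each changed sign between pigs. PTGER4, a prostaglandin E2 receptor gene, had -0.51 ± 0.55 (SE), with 1.04, -1.11 and -1.47 in pigs 1, 2 and 3. The leukotriene receptor gene CYSLTR1 had 0.77 ± 0.84 (SE), of which pig 1 gave 2.99. PTGDR, a receptor gene for prostaglandin D2, had -0.31 ± 0.29 (SE), and PPARG, a nuclear receptor that binds prostaglandin J2 derivatives, had 0.40 ± 0.42 (SE).

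**Figure D4:**
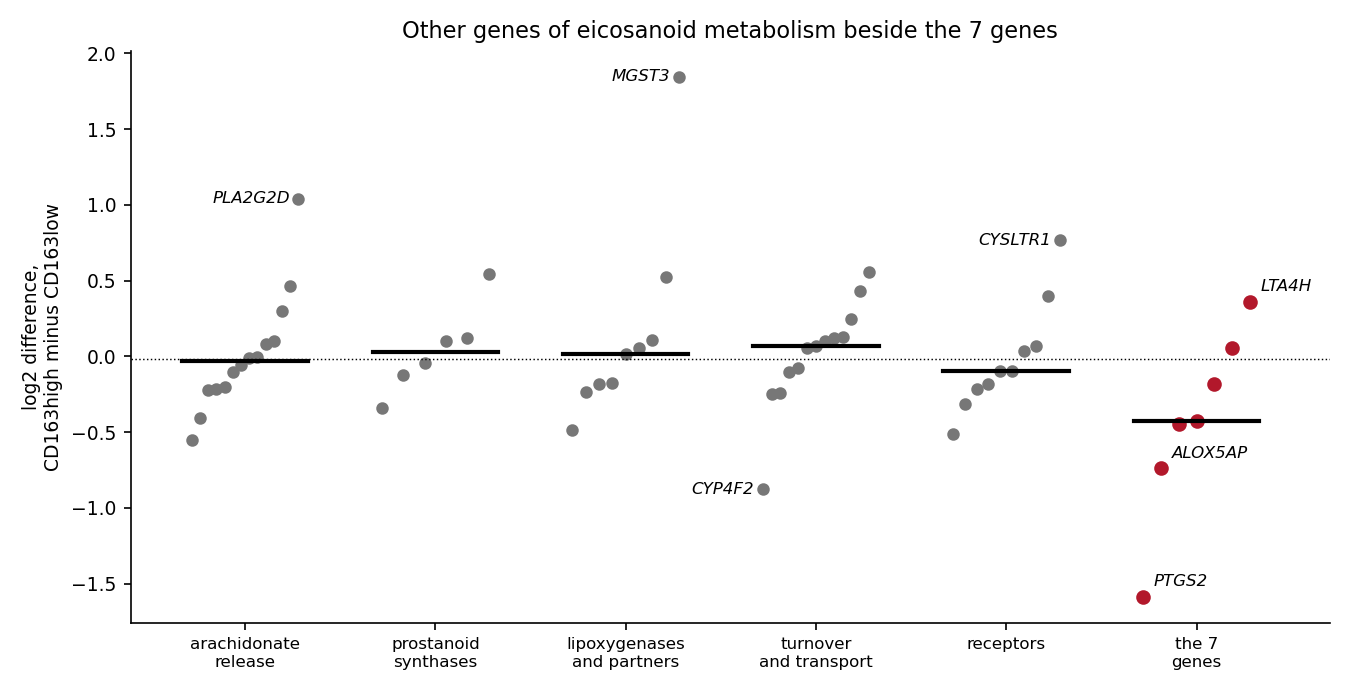
Log2 difference of CD163high minus CD163low (vertical axis) of the 52 measured genes by role (grey points) and of the 7 genes described here (red); thick lines are medians and the dotted line is the median of all probe sets, -0.02. PTGS2 at -1.59 lies below every grey point, the lowest of which is CYP4F2 at -0.88, and MGST3 is highest at 1.85.

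PTGS2 is an immediate early gene that inflammatory stimuli induce together with cytokine genes. A list of 22 symbols was drawn up for genes of this kind, with IL8 and CXCL8 naming the same gene. Of these, 20 genes were measured, 16 lower and 4 higher in CD163high, with a median difference of -0.25. Over all probe sets 52.8% were lower. In all 3 pigs 6 of the 20 were lower, as were 5937 of the 47722 probe sets, and 14 had mixed signs. The median of the list was -0.27, 0.04 and -0.62 in pigs 1, 2 and 3, so it was not lower in pig 2. Not every listed gene, ELAVL1 for example, is an immediate early gene, and dim genes lay on both sides. Of the 4 higher ones ELAVL1, at 0.04 ± 0.18 (SE), lay above the control mean on 1 of the 6 arrays, and IL6 on 0. Of the 16 lower ones CCL20, at -0.22 ± 0.19 (SE), and PTX3, at -0.11 ± 0.19 (SE), did so on 0. None of the 20 passed over the whole array. An unadjusted p under 0.05 was reached by 2 genes, both lower in CD163high, as it was by 1.36% of all probe sets in that direction.

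CXCL8, a chemoattractant of neutrophils listed as IL8 on the array, had 5.38, 4.72 and 5.21 in CD163high and 8.96, 7.25 and 9.17 in CD163low, a difference of -3.36 ± 0.53 (SE). TNF had 6.46, 6.25 and 7.08 in CD163high and 8.37, 6.74 and 8.45 in CD163low, a difference of -1.26 ± 0.51 (SE) with overlapping groups. The inflammatory cytokine gene IL1B had -1.12 ± 0.53 (SE) and NFKBIZ, a nuclear regulator of NF-kappaB, had -0.81 ± 0.53 (SE), each lower in CD163high in all 3 pigs. IL1A, another inflammatory cytokine gene, had -0.77 ± 0.64 (SE), with -1.12, -0.09 and -1.08 in pigs 1, 2 and 3. Differences near 0 were seen for FOS at -0.06 ± 0.53 (SE), ATF3 at -0.08 ± 0.29 (SE) and CEBPB at 0.09 ± 0.30 (SE). TNFAIP3 had 0.92 ± 1.10 (SE), with 3.42, 0.10 and -0.76 in the 3 pigs. IL6, CCL20 and PTX3 lay below the control mean on all 6 arrays.

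**Figure D5:**
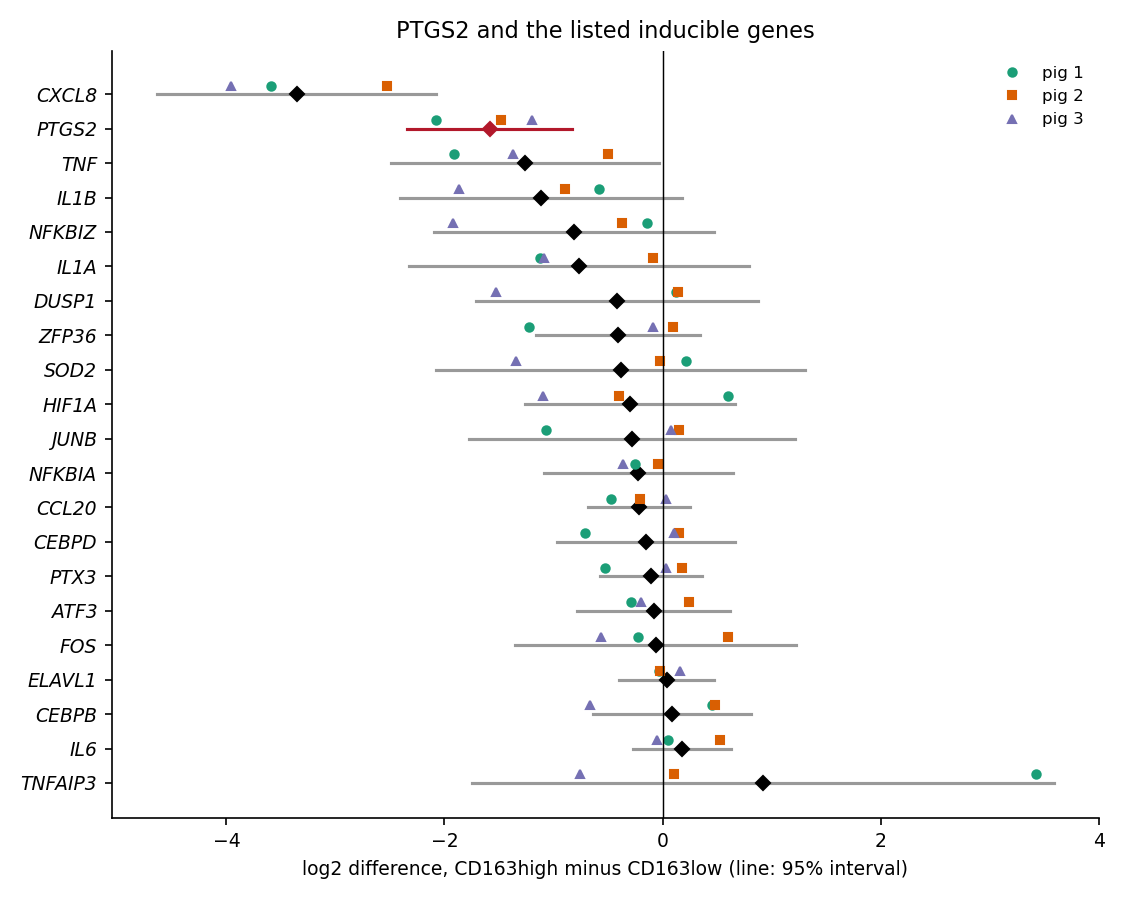
Log2 difference of CD163high minus CD163low (horizontal axis) of PTGS2 (red) and the 20 measured genes of the inducible list. Diamonds and lines give the limma estimate and its 95% interval, and small symbols the 3 pigs. CXCL8 at -3.36, PTGS2 at -1.59 and TNF at -1.26 lie furthest left, and TNFAIP3 has the widest spread, with pig 1 at 3.42.

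The genes whose profile over the 6 arrays lay closest to that of a member were found among 13663 other genes by the root mean square difference of the log2 signals, each centred on its own mean. For PTGS2 they were the bovine microRNA probe set of MIR363 at 0.22, the mouse microRNA probe set of Mir486 at 0.37 and PPAP2C, a lipid phosphate phosphatase gene now named PLPP2, at 0.39. None of these 3 was brighter than all controls on any array, and MIR363 lay above the control mean on 2 of the 6 arrays. For ALOX5AP they were the human microRNA probe set of MIR98 at 0.28, LGALS13, a galectin gene, at 0.31 and CSF2, the gene of a myeloid growth factor, at 0.32. These 3 were not brighter than all controls on any array either. MIR98 lay above the control mean on 4 of the 6 arrays, and LGALS13 and CSF2 on 5. The measure covers 6 arrays of 3 pigs and is a description.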

How the data were processed

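Total RNA of 6 sorted samples was hybridised to 1 porcine array each. The submitters' processing notes name RMA and limma but no version; roles, filters and build are not stated there. The deposited table holds intensity values made by the authors with RMA, per those notes. RMA subtracts background, equalises arrays and summarises probes, which compresses differences of dim probe sets. In the first 186 rows, mostly array controls, the deposited values are log2 values with at most 4 decimals. In the other 47659 rows the log2 of each value was whole at the 4th decimal (within 0.01 of that step), so log2 was taken of these only. All 8 probe sets of the members are in the later rows. The 123 array controls were left out, and 69 of them served as background controls. Of the 47722 probe sets left, 26426 had 1 gene symbol, 0 several and 21296 none. Symbols date from the array, and 13660 of 13755 were found in RefSeq. Each gene is represented by its brightest probe set on average. The probe sets of PTGES and the brighter one of ALOX5 carry the suffix _s, used by the maker for probes shared by several transcripts.

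The test was limma (version 3.58.1, R 4.3.3) on all probe sets, two-sided, without a block, with Benjamini-Hochberg adjustment over 47722 and a threshold of 0.05. It was also run on simulated data with independent arrays, which cannot show how it behaves with correlated arrays. The pig was a block in an alternative fit, since the labels give the animal of each array; deviations from the group means correlated at -0.20, 0.67 and 0.26 between the arrays of pigs 1, 2 and 3, and at 0.60 between the CD163high array of pig 3 and the CD163low array of pig 1, so the pairing rests on the labels. Those 2 arrays, CD163high of pig 3 and CD163low of pig 1, also had the highest background. The labels say that the arrays of a group come from different animals. The members, the lists and the tests were chosen with earlier results of these data known. Named are the members, the sort antigens, up to 6 genes in each direction of the eicosanoid list and 4 of the inducible list with the smallest p, the brightest markers and the 3 closest profiles. PLA2G4A, TBXAS1, PTGES2, PTGES3, LTB4R2, ALOX12, PTGER4, CYSLTR1, FOS, ATF3, CEBPB, TNFAIP3, ELAVL1, IL6, CCL20, PTX3, IL1A, CXCR2, TUBB1, LTF and EIF1AY were chosen outside this rule, with their values in view. The brightest markers of the other lists were LYZ (-0.04 ± 0.68, SE), KIT (2.29 ± 0.86, SE), BANK1 (0.74 ± 0.55, SE), CD2 (-0.17 ± 0.78, SE), GNLY (-0.96 ± 0.67, SE) and HBB (0.28 ± 2.54, SE), of monocytes, mast cells with basophils and eosinophils, B cells, T cells, NK cells and erythroid cells. The median differences of these lists, in the same order, were -0.04, 0.06, -0.42, -0.81, -0.30 and -0.01, so the positive BANK1 went against its list. Of the markers of mast cells, basophils and eosinophils, 1 (KIT) was higher and 1 lower at an unadjusted limma p under 0.05. The 6 B cell markers averaged between 5.40 and 6.77 in CD163high and between 5.85 and 7.07 in CD163low, the 6 NK cell markers between 4.70 and 5.85 in CD163high and between 4.95 and 6.29 in CD163low, and the 6 markers of mast cells, basophils and eosinophils between 4.12 and 4.46 in CD163high and between 3.84 and 4.07 in CD163low.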

Additional observations from a re-analysis of the deposited data

How the results depend on the processing

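PTGS2 had an unadjusted limma p under 0.05 in each of 19 refits (differences from -1.84 to -1.14, unadjusted p from 0.000966 to 0.0184). Its adjusted p lay between 0.177, with array weights, and 1. The groups of PTGS2 did not overlap, so leaving out pigs or arrays, or weighting arrays, could not turn the sign of its difference. Each pig gave 1 array per group, so a replicate block on the pig, fixed or random, could change the error but not the difference. The adjusted p of PTGS2 was 1 with either block, and no member moved past the threshold over the whole array. The cyclooxygenase median was -0.67 with array weights, -0.76 without the dimmest 50% of probe sets, where PTGS1 is dropped, and -0.62 without the 2 arrays with the highest background, a choice made after the data were seen. With pigs or arrays left out 1 at a time it ran from -0.59 to -0.26. The lipoxygenase median was 0.03 with array weights, -0.0077 without the 2 arrays and -0.18 when the probe sets of each gene were averaged, and ran from -0.42 to -0.012 with pigs or arrays left out. The number of members with an unadjusted p under 0.05 was 3 with array weights and 2 with the background signal as a covariate; with pigs or arrays left out it ran from 1 to 2, with 2 (PTGS2 and LTA4H) without CD163high of pig 3. Signs turned for PTGES with array weights (-0.37), with the background covariate (-0.12) and without the 2 arrays (-0.29), and for ALOX5 with array weights (0.18) and without the 2 arrays (0.094). With pigs or arrays left out, PTGES ran from -0.31 to 0.32, ALOX5 from -0.91 to 0.14, ALOX5AP from -1.19 to 0.049 and LTB4R from -0.36 to 0.040. The cause of these shifts was not tested. No setting with a count over the whole array called a probe set at an adjusted p of 0.05, nor did the threshold of 0.1. No such count was made where the probe sets of each gene were averaged. At an unadjusted limma p of 0.05 the count was 1235, and 1917 (4.02%) with the fixed block. The signal over background limits PTGS1, PTGES, ALOX5 and LTB4R most, since none was brighter than every control on any array.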
